A study of Mus musculus with 4 samples.

Results

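The comparison set the array of cells given 100 nM aldosterone against the array of cells given 1 nM, and so covered 2 of the 4 arrays of the study. The cells were mDCT, an immortalized mouse cell line of the distal convoluted tubule, into which a plasmid for the human mineralocorticoid receptor carrying a FLAG tag (pCSII-3xFLAG-hMR) had been lipofected. All 4 arrays, controls included, carried this receptor, and no array of untransfected cells was analysed here. From 48 h after transfection the cells were given ethanol or spironolactone for 2 h, and then ethanol or aldosterone for 3 h. Each group had 1 array: the ethanol vehicle, aldosterone at 1 nM, aldosterone at 100 nM, and the 100 nM dose given to cells pretreated with spironolactone at 5 µM. By their labels, the arrays with 1 nM and 100 nM differed in the dose alone. Each is 1 sample, so the dose cannot be told apart from other differences between the samples. The ethanol and spironolactone arrays took no part in the difference, and their signals are printed beside it.

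Aldosterone binds the mineralocorticoid receptor, which moves to the nucleus, binds DNA at steroid response elements and switches on target genes such as Sgk1, the kinase that raises sodium reabsorption in the distal nephron. The glucocorticoid receptor recognises the same elements, and aldosterone at high concentrations can occupy it too. Spironolactone is an antagonist of the mineralocorticoid receptor. The comparison addressed which transcripts stood higher or lower at the higher of the doses.

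The values were Affymetrix signals on a linear scale, and a difference is log2 of the signal with 100 nM minus log2 of the signal with 1 nM, so that 0.58 is 1.5-fold and 1 is 2-fold. Of 18193 genes with a probe set assigned to that symbol alone, 11057 entered, because their brightest probe set had a mean signal over the 4 arrays of at least 55.9, the median of all probe sets. With 1 array per treatment there was no replicate check, and tests and errors are left out: each difference is between these arrays, and words such as higher or lower refer to them.

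The elements searched in the promoters are shown here for the steroid-responsive genes that stood at least 1.5-fold higher with 100 nM: Sgk1, Per1, Tsc22d3 and Fzd4. Sequences are the 250 bases before a RefSeq transcript start (GRCm38.p6), written 5′ to 3′ on the strand of the gene. The motifs, searched on both strands, were the palindromic steroid receptor element, which is AGAACA and TGTTCT with 3 free bases between them, each of these hexamers alone, the E-box CACGTG that clock proteins bind, and the cAMP response element TGACGTCA. Capitals mark matches. The Sgk1 window lies at chr10:21993640-21993889 on the plus strand, before 1 of 6 listed Sgk1 starts. The Tsc22d3 window lies at chrX:140600523-140600772 on the minus strand, before 1 of 3 listed starts. The Per1 window lies at chr11:69098699-69098948 on the plus strand, before 1 of 2 listed starts.
Sgk1: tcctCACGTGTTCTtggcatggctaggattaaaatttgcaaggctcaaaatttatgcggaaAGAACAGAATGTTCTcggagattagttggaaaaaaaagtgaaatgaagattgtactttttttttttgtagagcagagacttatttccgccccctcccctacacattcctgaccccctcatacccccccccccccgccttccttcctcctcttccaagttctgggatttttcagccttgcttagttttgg
Tsc22d3: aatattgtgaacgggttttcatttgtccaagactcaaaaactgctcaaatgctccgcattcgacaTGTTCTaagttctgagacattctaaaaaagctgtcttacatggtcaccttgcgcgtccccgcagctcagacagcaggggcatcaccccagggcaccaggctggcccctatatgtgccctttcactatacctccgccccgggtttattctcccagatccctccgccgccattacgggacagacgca
Per1: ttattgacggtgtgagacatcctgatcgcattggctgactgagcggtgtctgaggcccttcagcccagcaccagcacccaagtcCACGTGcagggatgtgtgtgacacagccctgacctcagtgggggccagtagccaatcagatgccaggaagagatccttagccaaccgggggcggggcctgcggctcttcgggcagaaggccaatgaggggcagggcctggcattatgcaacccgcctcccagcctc

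The Sgk1 window held the whole element, starting 189 bases before its own start and 965 bases before the next listed Sgk1 start. Over all promoters, 3 of 32851 windows held it (0.00913%), those of Sgk1, Acnat2 and a predicted gene. Either hexamer was in 16.1% of the windows, an E-box in 6.02% and a cAMP response element in 1.55%. In the Sgk1 window the E-box at the left overlaps a TGTTCT hexamer, with letters in common. The Tsc22d3 window held 1 hexamer, TGTTCT, 185 bases before the start, and the Per1 window 1 E-box, 166 bases before it. The 3 windows are shown because they hold matches. Of the other 5 Sgk1 windows 2 held a hexamer, and the other 2 Tsc22d3 windows, the other Per1 window and the Fzd4 window held no match. A match describes letters in these windows, and the arrays do not tell which start was used.

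Sgk1, Per1, Tsc22d3 (GILZ, a steroid-induced leucine zipper protein) and Klf9, a Krüppel-like transcription factor, stood higher with 100 nM than with 1 nM. The Sgk1 signal was 801 with ethanol, 935 with 1 nM, 1810 with 100 nM and 1424 with spironolactone. The 100 nM array was thus the highest of the 4 for Sgk1, at 1.94-fold the 1 nM array (log2 0.95), and only the ethanol array lay below the 1 nM array. Per1, a repressor in the circadian clock, had signals of 231, 224, 527 and 349 in the same order. Its difference was 1.24, or 2.35-fold, and the ethanol and 1 nM arrays were close to each other. Tsc22d3 read 711, 703, 1365 and 994, a difference of 0.96. Its second probe set differed by 0.67 and the dimmest by -0.05. Sgk1 and Per1 each had 1 probe set that entered.

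All 6 entered probe sets of Klf9 stood higher. The brightest read 1349, 1393, 1844 and 1640, a difference of 0.40, and the other 5 differed by 0.43, 0.45, 0.41, 0.65 and 0.97, the last of which is 0.91 with its 1 nM signal of 53.7 set to the filter value. Tns1, tensin 1, which links integrins to actin, had 3 of 3 probe sets higher, by 0.47, 0.42 and 0.74. Its brightest probe set read 228 with ethanol, 268 with 1 nM, 372 with 100 nM and 265 with spironolactone. Akap12, a scaffold of protein kinase A, read 3284, 3396, 5495 and 4930 and differed by 0.69. At the brightest probe set of Klf9, Tns1 and Akap12 the 100 nM array was the highest of the 4, while the second brightest of Klf9 read 1699 with 100 nM and 1734 with spironolactone.

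**Figure D1:**
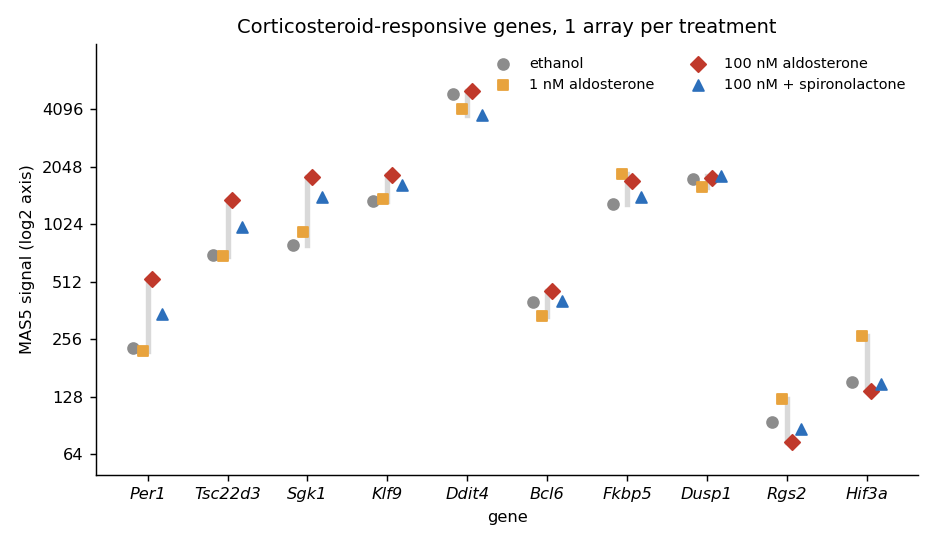
MAS5 signals (log2 axis) of 10 steroid-responsive genes on the ethanol, 1 nM, 100 nM and spironolactone arrays, 1 symbol per array; grey bars span the lowest to the highest array. Sgk1 goes from 935 with 1 nM to 1810 with 100 nM, while Fkbp5 goes from 1880 to 1735.

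Not every steroid-responsive gene stood higher. Fkbp5, a chaperone that dampens steroid receptor signalling, read 1315, 1880, 1735 and 1414 at its brightest probe set, a difference of -0.12. The arrays with aldosterone alone were the highest for it, and its second probe set read 210 with 1 nM and 329 with 100 nM, a difference of 0.65. Ddit4, an inhibitor of mTORC1, read 4927, 4105, 5120 and 3844, a difference of 0.32, with the ethanol array close to the 100 nM array. Rasl12, a small Ras-like GTPase, read 157, 221, 250 and 197, a difference of 0.17. Hif3a, a hypoxia-inducible factor subunit, read 154, 267, 138 and 150 and differed by -0.96, with the 1 nM array the one that stood apart; its second probe set differed by -0.10. Rgs2, a regulator of G protein signalling, read 94.4, 125, 74.5 and 87.0, a difference of -0.74, and its second probe set differed by -0.70. The list of 35 steroid-responsive genes had 31 members that entered: 4 were at least 1.5-fold higher (Per1, Tsc22d3, Sgk1 and Fzd4) and 2 at least 1.5-fold lower (Hif3a and Rgs2). Fzd4 was dim, at 126 with ethanol, 60.7 with 1 nM, 91.0 with 100 nM and 117 with spironolactone. It only just passed 1.5-fold, and its 100 nM signal lay below the ethanol signal. Over all genes that entered, 226 (2.04%) were at least 1.5-fold higher and 217 (1.96%) at least 1.5-fold lower. The counts of the lists below are to be read against these shares, at which a short list holds few or no such members. The median of the list was 0.07, and 0.06 over the 28 members other than Sgk1, Tsc22d3 and Per1. The median of all genes was 0.00, and 48.7% of them lay below 0.

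Nr3c1, the glucocorticoid receptor, read 1959, 1998, 1708 and 1871, a difference of -0.23, while its other 4 probe sets differed by 0.16, -0.27, -0.49 and -0.18. The mouse Nr3c2 probe set, for the mineralocorticoid receptor, read 2.35, 21.8, 4.44 and 15.1, all under the signal filter. It does not check the human receptor that was introduced. Of 16 steroid receptors and chaperones that entered, 0 were 1.5-fold higher or lower.

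Genes reported as induced by aldosterone in the nephron had 18 of 22 members entering, 3 higher (Sgk1, Tsc22d3 and Per1) and 2 lower. The lower ones were Grhl2, an epithelial transcription factor, and Usp2, a ubiquitin-specific protease that read 169, 175, 113 and 206 (difference -0.64). The median of this list was -0.03, and 0.08 when all probe sets of a gene were combined. Of the 28 distal ion transport genes 14 entered, 0 at least 1.5-fold higher and 0 lower, with a median of 0.03. Over all genes 2.04% were higher and 1.96% lower by that much, so such counts do not set a short list apart. Of 16 clock genes 1 was at least 1.5-fold higher, Per1. Cry1, a clock repressor, read 1175, 1177, 832 and 1140, a difference of -0.50, while Cry2, its relative, read 152, 107, 147 and 131, a difference of 0.46. Cry1 was lowest in the 100 nM array, and Cry2 was lowest in the 1 nM array.

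Growth factor signalling genes lay mostly below 0. Of 25 ERK target and feedback genes that entered, 20 (80.0%) were lower with 100 nM, with a median of -0.11. When all probe sets of a gene were combined, a count of 20 was below 0 and the median was -0.20. Fgfr1, a fibroblast growth factor receptor, was the one member past 1.5-fold, at 193, 249, 138 and 154 (difference -0.85). Spry4, a Sprouty inhibitor of receptor tyrosine kinase signalling, read 97.4, 131, 90.0 and 124 and differed by -0.55, and its second probe set by -0.29. Dusp6, the phosphatase that switches off ERK, read 1643, 1575, 1389 and 1639, a difference of -0.18. Spred1, an inhibitor of Ras signalling, had 6 of 6 probe sets lower, the brightest by -0.11. Phlda1, a growth factor-induced gene, read 1804, 1605, 1264 and 1551, a difference of -0.34. Hbegf, an EGF receptor ligand, read 1988, 1929, 1601 and 1794, with probe sets at -0.27 and -0.19. The 100 nM array was the lowest of the 4 for Fgfr1, Spry4, Dusp6, Phlda1 and Hbegf, the last 3 of which were named after their values were seen. It was also the lowest for Spred3 (116, 126, 95.4 and 117; difference -0.40). Ereg read 61.3, 79.7, 62.4 and 81.0, a difference of -0.35, and was lowest with ethanol. Spry2 went the other way at its brightest probe set (0.24), and its second differed by -0.42.

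Immediate early genes, which switch on within minutes of a stimulus, had 19 of 26 members (73.1%) below 0, a median of -0.05, 0 past 1.5-fold and a range of -0.32 to 0.13. Ier2 was the lowest, at 1823, 1915, 1530 and 1847. Plasminogen, endothelin and vasoactive genes had 10 of 12 members (83.3%) below 0 and a median of -0.19. Nos1, a nitric oxide synthase, read 140, 184, 105 and 187, a difference of -0.81. Plaur, the urokinase receptor, read 909, 1044, 773 and 969, a difference of -0.43. The members above 0 were Agtr1a and Ace. Agtr1a, the angiotensin receptor, stood higher by 0.65, or by 0.35 where a signal below the filter was set to the filter value. Ace read 130, 84.9, 117 and 92.0, a difference of 0.47, with the ethanol array the highest. The shares below 0 of these lists are to be read against 48.7% of all genes, and they share 1 pair of arrays.

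TGF-beta pathway genes had 22 of 30 members below 0 (73.3%), but only 17 when probe sets were combined, and the medians were -0.08 and -0.02. Its 2 members past 1.5-fold were both higher. Ccn2, a matricellular target of TGF-beta and of Hippo signalling, read 3342, 2887, 5602 and 4835, a difference of 0.96. Ski, a repressor of Smad transcription factors, read 369, 400, 776 and 394, also 0.96, but its second probe set differed by 0.04. Fst, follistatin, an activin antagonist, read 338, 296, 431 and 312, a difference of 0.54, and its second probe set differed by 0.51. Smad7, an inhibitory Smad, differed by -0.42 at its brightest probe set and by 0.78 at the second.

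**Figure D2:**
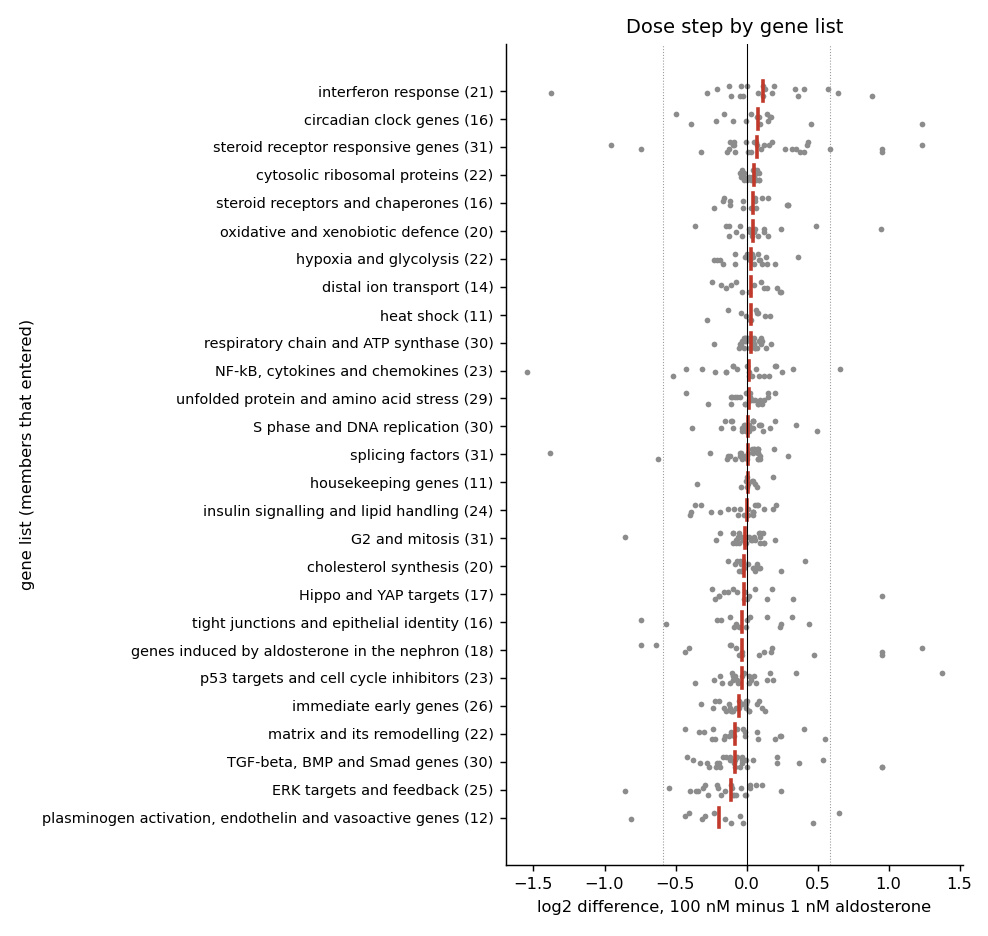
Log2 differences of 100 nM minus 1 nM for the members of 27 gene lists with at least 10 members that entered, with each list's median as a red bar and 1.5-fold as dotted lines. Most medians lie close to 0, and ERK targets (-0.11) and plasminogen and vasoactive genes (-0.19) are among the lowest.

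Other gene groups had medians near 0. The medians of 22 ribosomal protein genes (0.05, members from -0.04 to 0.09), 30 respiratory chain genes (0.03), 30 S phase genes (0.01), 29 unfolded protein response genes (0.01), 24 insulin and lipid genes (0.01), 20 cholesterol synthesis genes (-0.02) and 11 housekeeping genes (0.01) lay between -0.02 and 0.05. By sign, 16 of the 22 ribosomal protein genes (72.7%) lay above 0 and 6 below. Of the 11 housekeeping genes 8 (72.7%) lay above 0 and 3 below, beside 51.3% of all genes above 0. A one-sided share with a median near 0 was thus found in these groups as well. Among 21 interferon response genes the median was 0.11. Irf7, an interferon regulatory factor, read 112, 113, 208 and 186, a difference of 0.89, and Psmb9, an immunoproteasome subunit, 179, 195, 305 and 183, a difference of 0.65. Stat2, which carries interferon signals to the nucleus, differed by 0.57 and its second probe set by 0.51. Its brightest probe set was dim, at 115, 64.9, 96.7 and 61.0, with the 100 nM signal below the ethanol signal. Rsad2, viperin, went the other way and was at least 2.42-fold lower with 100 nM (135 with 1 nM and 52.1 with 100 nM).

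Lists for inflammation, cell cycle and splicing each held few members past 1.5-fold, beside 2.04% higher and 1.96% lower over all genes. Of 23 NF-kB and cytokine genes, Traf1, an adaptor of TNF receptors (93.8, 64.5, 102 and 104), was higher and Irak1 lower, and the median was 0.02. Of 31 G2 and mitosis genes 1 was lower, Nuf2, and of 31 splicing factors 2 were lower, Dhx38, a splicing helicase, and Rbmx. Rbmx, an RNA-binding protein, read 661, 631, 409 and 553, a difference of -0.62, but its other probe sets differed by 0.43 and 0.09. Of 23 p53 targets and cell cycle inhibitors 1 was higher, Cdkn2a. Of 22 matrix genes 0 were past 1.5-fold in either direction, 15 lay below 0 and the median was -0.08.

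Markers of the distal tubule were checked against the label. Of 10 distal convoluted tubule markers 6 entered, among them the kinase Wnk1 (6878 to 8372), but Slc12a3, the sodium chloride cotransporter that defines this segment, was under the filter on every array (3.93 to 17.2), as were Calb1 and Umod. The summed signal of the 6 was 10177 with ethanol, 11346 with 1 nM, 10422 with 100 nM and 11955 with spironolactone. Most of it came from Wnk1 and Trpm7, at 7413 and 3162 with 1 nM, and the rest from Wnk4, Stk39, Trpm6 and Pvalb. Of the proximal tubule markers 5 of 6 entered, including the water channel Aqp1 (2069 to 2479), and of the epithelial markers 2 of 6, with Cdh1 under the filter. Of the markers of other cell types, 1 of 6 for collecting duct, 0 of 5 for intercalated cells, 0 of 6 for fibroblasts, 1 of 5 for endothelium and 1 of 5 for leukocytes entered. Over all genes 11057 of 18193 entered, and the marker counts are to be read against that share. The 6 of 10 distal markers lie near it, so their count does not set them apart. The proximal tubule markers had a median difference of -0.05 and the 6 distal markers -0.16, whose part in the results was not tested. In bulk RNA, fewer cells of a type and less RNA per cell cannot be told apart.

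The spread of the differences was narrower at higher signal. Among the 2765 dimmest genes (signal 55.9 to 238) the SD over genes was 0.44, and among the 2764 brightest (1865 and above) 0.11. The 2765 dimmest genes held 188 of the 226 genes at least 1.5-fold higher and 199 of the 217 at least 1.5-fold lower. At least 2-fold differences were found for 46 genes higher (0.416%) and 46 lower (0.416%), and 44 and 45 of these were among the 2765 dimmest. The pair thus had 92 genes past 2-fold, while the other 5 pairs of the 4 arrays had 96 to 123. The median signal of the arrays was 58.7 to 61.5, and the trimmed mean was 500.0 on each.

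**Figure D3:**
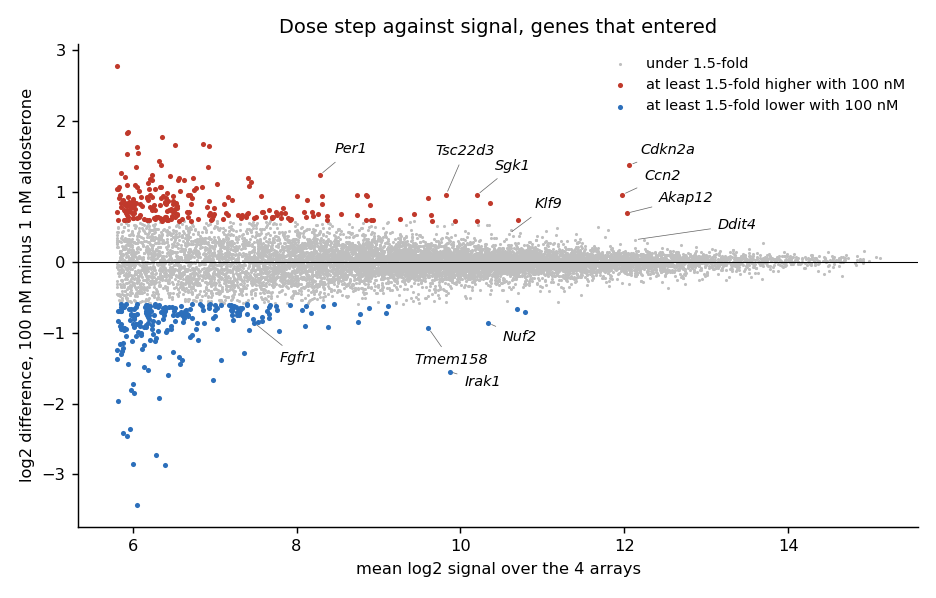
Log2 difference of 100 nM minus 1 nM against mean log2 signal over the 4 arrays for the 11057 genes, 1 point per gene, red for at least 1.5-fold higher and blue for at least 1.5-fold lower. The spread narrows from an SD of 0.44 among the 2765 dimmest genes to 0.11 among the 2764 brightest.

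The 12 highest and 12 lowest genes past 2-fold were ranked after any signal below the filter was set to the filter value, and most of them were dim. Without that step differences ran from -3.43 to 2.78, and genes with a signal far below the filter, such as Klf14 (107 with 1 nM and 14.9 with 100 nM, named after its values were seen), would come first. Eif4e3, a cap-binding protein, read 113, 65.3, 208 and 118, 3.19-fold higher, but its second probe set differed by -0.45. Adam22, a membrane protein of the disintegrin family, read 75.3, 71.1, 222 and 188, 3.12-fold higher. Rasd1, a Ras-like protein named for its induction by dexamethasone, read 74.7, 58.0, 135 and 101, 2.32-fold higher, and Nrxn3, a neurexin, 67.0, 71.2, 182 and 246, 2.55-fold higher. The remaining ones on the higher side were Tmc8, Cdkn2a, Rab11fip4, Wbp2nl, Per1, Prf1, Smim27 and Gpr162. On the lower side were Fam131c (at least 3.43-fold), Slco2b1 (at least 2.97-fold), Cep126 (at least 2.94-fold), Fcgr2b (at least 2.92-fold), Irak1 (2.92-fold), Wfdc1 (at least 2.59-fold), Odf3b (at least 2.56-fold), Dhx38 (at least 2.44-fold), Ccdc92 (2.43-fold), Hrk (at least 2.43-fold), Hic1 (at least 2.42-fold) and Rsad2.

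Of the 6936 genes at or above a signal of 420, the 75th percentile of probe sets, 22 were at least 1.5-fold higher (0.317%) and 10 lower (0.144%). Cdkn2a, which encodes the cell cycle inhibitors INK4a and ARF, was the one past 2-fold higher, at 6210 with ethanol, 2812 with 1 nM, 7295 with 100 nM and 2616 with spironolactone (2.59-fold). The ethanol and 100 nM arrays were high and the other 2 low. Irak1, an interleukin receptor kinase, was the one past 2-fold lower, at 1246, 1281, 439 and 1088, but its other 3 probe sets differed by 0.00, -0.05 and 0.06. Others of the bright genes were Cenpb, a centromere protein (579, 310, 603 and 308), Tmem158 (804, 991, 520 and 899; second probe set -0.29) and Nuf2, a kinetochore protein (1455, 1542, 851 and 1472). Nuf2 was low in the 100 nM array alone. Pan3, a subunit of the deadenylase that trims poly(A) tails, read 1026, 1192, 2125 and 1143, a difference of 0.83, but its other probe sets differed by -0.10 and -0.45. Hira, a histone chaperone, read 536, 384, 671 and 378, a difference of 0.81, and its second probe set differed by -0.17. Pld2, a phospholipase D, read 986, 497, 933 and 792, and its probe sets differed by 0.91 and 0.19. Ppp1r37, a regulatory subunit of protein phosphatase 1, read 558, 450, 270 and 542, a difference of -0.74. Trmt61a read 423, 531, 296 and 523 (-0.84), and Zdhhc12 read 494, 673, 411 and 652 (-0.71). The bright genes had an SD of 0.15 over genes, which sets the size of these differences against the spread of the pair, not against replicates.

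Agreement between probe sets was partial. Of 48 genes with 2 or more probe sets and a brightest at least 1.5-fold higher, the second brightest had the same sign in 24, and 49.8% of all such genes had a second probe set above 0. Of the 48, 7 (14.6%) had a second probe set at least 1.5-fold higher and 2 at least 1.5-fold lower, while 2.55% and 2.66% of all genes did. Of 35 genes with a brightest at least 1.5-fold lower, 20 (57.1%) had the same sign, 3 (8.57%) were at least 1.5-fold lower too, and 5 were at least 1.5-fold higher, so that more second probe sets passed 1.5-fold the opposite way than the same way. Across 5218 genes, brightest and second brightest differences correlated with a Pearson's r of 0.07, and of 0.18 over the 2376 genes with both bright. These probe sets share an array and RNA, so the values describe the probe sets and not the treatment.

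Genes whose probe sets all differed the same way were ranked by their smallest difference, and 12 were taken in each direction. Their agreement in sign was thus set by the choice. Of 5218 genes with 2 or more probe sets, 1105 (21.2%) had all of them higher and 1091 (20.9%) all lower. Only 5 had all at least 1.5-fold higher, and 2 all at least 1.5-fold lower. Those that stood higher with 100 nM included Rgcc, a regulator of the cell cycle (294, 305, 447 and 313), with probe sets at 0.55 and 0.54. Gprc5c, an orphan receptor, read 281, 274, 393 and 277, with probe sets at 0.52 and 0.62. Arl15, an Arf-like GTPase, read 803, 677, 1019 and 746, with probe sets at 0.59 and 0.61. In these 3 genes the 100 nM array was the highest. Lmnb1, lamin B1, read 2395, 1876, 2563 and 1735, with probe sets at 0.45 and 0.57, and its ethanol array lay close to the 100 nM array. The others that stood higher were Trappc12 (0.59, 1.23 and 0.80), Vars2, Tnfrsf1b, a TNF receptor (0.76 and 0.50), Rpusd2 (0.53 and 0.54), Pithd1, Fst, Stat2 and Trpm2, a cation channel. The second probe set of Trpm2 read 27.9 with 1 nM, below the filter, so its difference is at least 0.47 beside 0.61 at the brightest.

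On the lower side Rgs2 came first. Malt1, an NF-kB paracaspase, read 281, 329, 226 and 243, with probe sets at -0.54 and -0.80. Bcl9l, a Wnt coactivator, read 306, 406, 289 and 294, with probe sets at -0.49 and -0.69. Slc7a11, the cystine transporter, read 234, 242, 181 and 166, with probe sets at -0.42 and -0.40. Malt1 and Bcl9l were lowest with 100 nM, and Slc7a11 was lowest with spironolactone. The others were Kcnq1ot1, an antisense RNA of the Kcnq1 locus (-0.55 and -0.60), Map6 (-0.53 and -0.50), Zfp950 (-0.46 and -0.47), Gstm7, a glutathione transferase (-0.75 and -0.41), Nudt16 (-0.40 and -0.47), Cbln1 (-0.39 and -0.53), Clstn2 and Ccdc69. The second probe sets of Clstn2 and Ccdc69 were below the filter with 100 nM, and with the filter value their differences were -0.76 and -0.87, beside -0.60 and -0.56 at the brightest. Zeb2, a repressor of epithelial genes, had 4 of 4 entered probe sets lower, the brightest by -0.57.

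**Figure D4:**
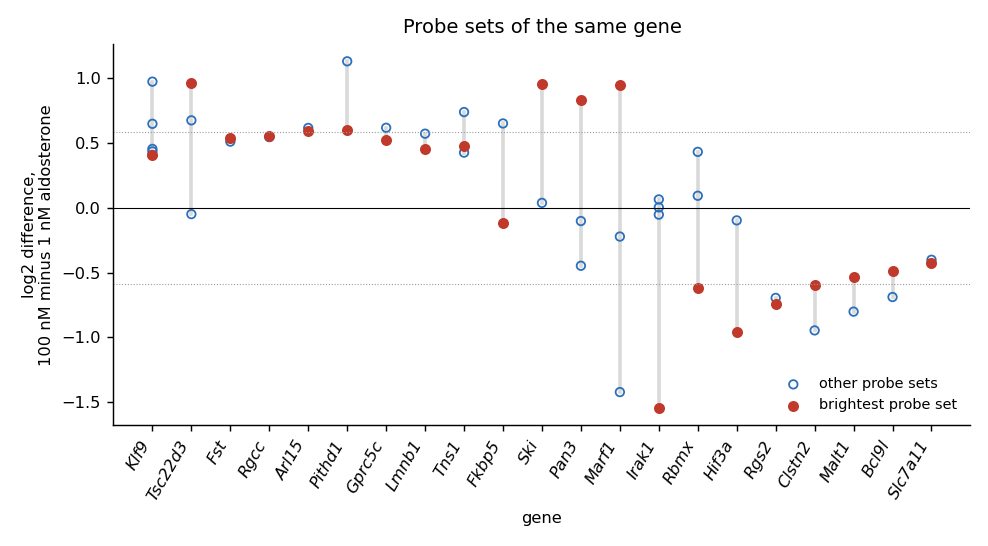
Log2 differences of 100 nM minus 1 nM for every entered probe set of 21 genes, the brightest of each gene as a filled red point, the others as open blue points and 1.5-fold as dotted lines, with signals as measured. Klf9 has all 6 probe sets above 0, whereas Irak1 has one far below 0 and 3 near it.

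The spironolactone and ethanol arrays form the one pair that shares no array with the dose comparison. The spironolactone array also had 100 nM aldosterone, so this pair differs in both compounds. Over all genes, 240 (2.17%) were at least 1.5-fold higher on the spironolactone array than on the ethanol array and 225 (2.03%) at least 1.5-fold lower. Of the 226 genes higher with 100 nM, 37 (16.4%, and 15.4% of the 240) were also higher on the spironolactone array and 25 (11.1%, and 11.1% of the 225) lower. Of the 217 lower genes, 25 (11.5%) were higher and 22 (10.1%) lower. The 2765 dimmest genes, with the widest spread, held 188 of the 226 and 199 of the 217. The shares over all genes are therefore not matched for signal, and no excess is read from them. Across genes, the 2 differences correlated with a Pearson's r of -0.05 over 11057 genes and -0.18 over the 6936 bright genes. Of the 6936 bright genes, 14 (0.202%) passed 1.5-fold upward from ethanol to spironolactone and 13 (0.187%) downward. Of the 22 bright genes higher with 100 nM, 2 (Sgk1 and Akap12) were higher in the second pair too, and 5 (Cdkn2a, Cenpb, Marf1, Pithd1 and Tmem14c) were lower. Tmem14c was named after its values were seen. Pithd1 read 2166, 1330, 2015 and 1320, and its second probe set differed by 1.13 in the dose pair, or 1.06 with its 1 nM signal of 53.2 set to the filter value. In the second pair that probe set went the other way, by 0.51 against -0.71 at the brightest. The other entered probe sets of Marf1 differed by -0.22 and -1.42 in the dose pair, against 0.94 at its brightest. The -1.42 becomes -1.15 with the 100 nM signal of that probe set, 46.3, set to the filter value. Of the 10 bright genes lower with 100 nM, 0 were past 1.5-fold in the second pair.

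**Figure D5:**
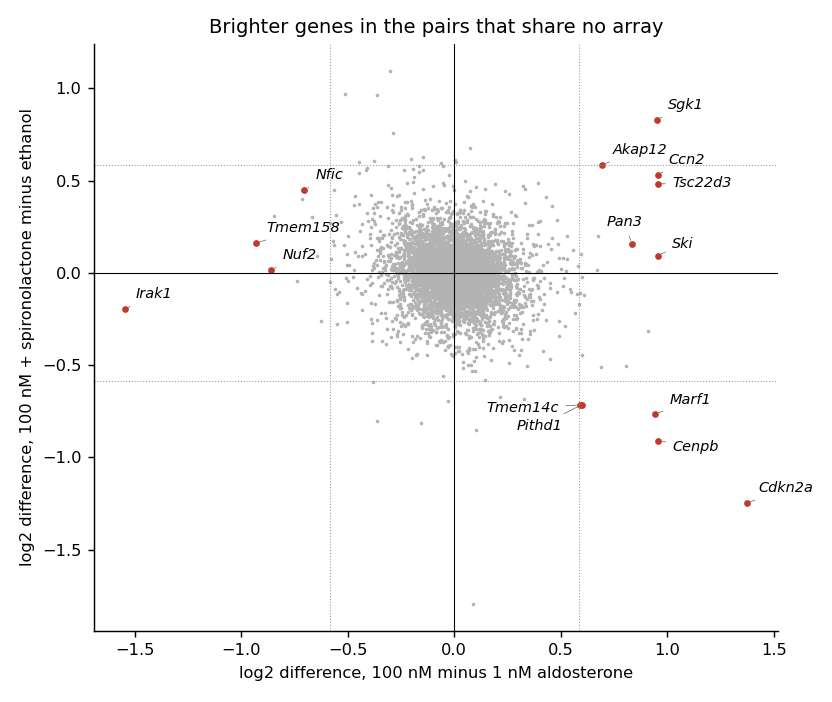
For genes at or above a signal of 420, the log2 difference of 100 nM minus 1 nM (x axis) against that of 100 nM plus spironolactone minus ethanol (y axis), 1 point per gene. Sgk1 lies above 0 on both axes, whereas Cdkn2a lies above 0 on the x axis and below 0 on the y axis.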

How the data were processed

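Affymetrix arrays measured total RNA (250 ng) of 4 samples, 1 per treatment. The deposited intensity values are linear MAS5 signals, per the submitters' processing notes; from the values, the trimmed mean (2% from each end) was 500.0 on every array. Detection calls were not used here, so the filter is on signal. Signals were converted to log2 with no offset. Genes took their brightest one-symbol probe set by mean log2 over the 4 arrays (34945 of 45101 probe sets had 1 symbol), and 64 control probe sets were left out. Genes entered at or above the median signal of 55.9. Folds whose dimmer signal lay under it are lower bounds.

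Named genes were the 12 highest and 12 lowest past 2-fold and the 10 highest and lowest bright genes. They also took in 12 each way whose probe sets all agreed in sign, the 4 largest differences of each list, and steroid genes and receptors. Not all of these 166 genes are printed in the text. Clone-like names were not printed, and other list members were named after their values were seen. Members and lists were chosen with earlier results of these data known. Promoter sequences came from RefSeq. Python 3.11.15, numpy 2.4.6 and pandas 2.3.3 were used, and the steps were tested on simulated data.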

Additional observations from a re-analysis of the deposited data

How the results depend on the processing

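No paired analysis was possible because each treatment had 1 array, and no replicate could be left out. The counts of genes at least 2-fold higher and lower (46 and 46) became 27 and 23 where signals below the filter were set to its value, 8 and 18 with an offset of 50, 1422 and 1554 with no filter, and 1 and 1 with a filter at the 75th percentile of signal. The counts at 1.5-fold (226 and 217) became 73 and 80 with the offset, 2285 and 2459 with no filter, and 22 and 10 with the 75th percentile filter. Quantile normalization and the median over probe sets left these 4 counts within 1.5 times. With the median over probe sets, Marf1 (-0.22), Pan3 (-0.10), Rbmx (0.092) and Spata5 (0.017) turned direction and 17 more of the 166 named genes moved by more than the SD over genes (0.26). The offset moved 25 named genes by that much and the filter value 6, with no change of direction, and quantile normalization moved 0. Of the list medians, the nephron list moved to 0.08 with that setting, and the tight junction list to -0.15 with no filter; the steroid list without Sgk1, Tsc22d3 and Per1 was chosen after seeing the data. Dim signals had the widest spread, and a design of 1 array per treatment limits precision.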

Other observations

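Oxidative defence and cell cycle inhibitor genes had single members that stood apart. Gsta4, a glutathione transferase, read 319 with ethanol, 202 with 1 nM, 388 with 100 nM and 408 with spironolactone, a difference of 0.94, while the list of 20 had a median of 0.04 and no other member at least 1.5-fold higher or lower. Cdkn2b, the neighbour of Cdkn2a that encodes INK4b, read 867, 1102, 859 and 989, a difference of -0.36, opposite in sign to Cdkn2a. Nfic, a nuclear factor I protein, read 1648, 2064, 1268 and 2251 (-0.70), and Nrg1, a ligand of ErbB receptors, 414, 653, 418 and 441 (-0.64).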
